A study of Mus musculus with 4 samples.

Results

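The genes described here are the 7 protein subunits of respiratory complex I that the mouse mitochondrial genome encodes: mt-Nd1, mt-Nd2, mt-Nd3, mt-Nd4, mt-Nd4l, mt-Nd5 and mt-Nd6. They were chosen by gene symbol alone, and they are 7 of the 31053 genes listed in the files. All 7 were detected in each library with a count matrix. The study profiled single cells of the whole hippocampus from male C57BL/6 mice by droplet RNA sequencing. In the ischaemia model (2VO), both common carotid arteries were clamped for 50 min under anaesthesia and then reperfused. Sham mice underwent the same anaesthesia and surgery, with the clamps released at once. Tissue was taken 7 days after surgery, and each library came from 1 mouse (the labels give an age of 12 weeks, the methods 6 to 10 weeks). Count matrices of 2 sham libraries and 1 2VO library were analysed, so every difference between the groups rests on a single 2VO mouse, and library, mouse and condition cannot be told apart for it. The matrix of the second 2VO library was not analysed here. The cells were released with pronase and cleaned on a density gradient without sorting.

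Complex I is the entry point of the mitochondrial respiratory chain. It takes electrons from NADH, passes them to ubiquinone and pumps protons across the inner membrane. Its membrane arm is built around the mitochondrially encoded subunits, whereas the nucleus encodes the remaining ones, which are imported from the cytosol. Both strands of the circular mitochondrial genome are transcribed as long precursors that are cut into shorter RNAs. ND6 is the only mRNA read from the opposite template to all the others: by the usual convention it is called the light-strand gene and the other ND genes heavy-strand genes. Poly(A) tails of mitochondrial mRNAs are short, and ND6 mRNA is known in human cells to lack one almost entirely, whereas a 3′ kit of the kind used here primes on runs of A.

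In the GENCODE vM21 annotation of GRCm38, the build the labels name as mm10, all 7 genes lie on chromosome M as single exons without introns. mt-Nd1 (positions 2751 to 3707, 957 bases), mt-Nd2 (3914 to 4951, 1038 bases), mt-Nd3 (9459 to 9806, 348 bases), mt-Nd4l (9877 to 10173, 297 bases), mt-Nd4 (10167 to 11544, 1378 bases) and mt-Nd5 (11742 to 13565, 1824 bases) are on the plus strand. mt-Nd6 (13552 to 14070, 519 bases) is on the minus strand. The models hold the coding part only. mt-Nd4l and mt-Nd4 overlap by 7 bases on the same strand, so a read that lies across this overlap belongs to both genes. mt-Nd5 and mt-Nd6 overlap by 14 bases on opposite strands, and they can be told apart only by the strand of a read. The ends that overlap are printed with the shared bases in capitals, each 5′ to 3′ on the gene's own strand.
mt-Nd4l, last 30 bases (chrM:10144-10173, plus): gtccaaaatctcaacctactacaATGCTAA
mt-Nd4, first 30 bases (chrM:10167-10196, plus): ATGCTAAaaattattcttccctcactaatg
mt-Nd5, last 30 bases (chrM:13536-13565, plus): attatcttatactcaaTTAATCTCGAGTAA
mt-Nd6, last 30 bases (chrM:13552-13581, minus): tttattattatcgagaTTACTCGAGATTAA

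The longest run of A in each gene is printed next, with the run in capitals, because the assay primes on A and the 2 strands differ in base composition. The heavy-strand genes held runs of 4 to 8 A, the longest of them in mt-Nd2. The longest run in mt-Nd6 was 3 A.
mt-Nd1 (chrM:3608-3637, plus): acatcttctatgAAAAAActttctacccct
mt-Nd2 (chrM:4041-4070, plus): tactaatcaacAAAAAAAAcccacgatcaa
mt-Nd3 (chrM:9541-9570, plus): atctgtactcagAAAAAgcaaatccatatg
mt-Nd4 (chrM:10216-10245, plus): tatcaagccctAAAAAAAcctgaacaaacg
mt-Nd4l (chrM:10100-10129, plus): tagccctactagtAAAAgtttcaaacacgt
mt-Nd5 (chrM:12625-12654, plus): aaaacgacatcAAAAAAAtcattgccttct
mt-Nd6 (chrM:13992-14021, minus): ttgggttagcattAAAgccttcacctattt
A run of 4 A (the letters AAAA on the gene's own strand) was present in 12 of the 13 mitochondrial mRNAs and absent only from mt-Nd6. Among 52993 other protein-coding transcripts of the annotation, 86.9% held AAAA within their last 519 bases, the length of mt-Nd6. The reverse complement TTTT was likewise present in 12 of the 13 mitochondrial mRNAs, 10 times in mt-Nd6, and in 84.3% of the same transcript ends. These matches describe the letters only. Where the reads primed was not tested.

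Only barcodes in which 650 or more genes were detected entered the comparisons. They numbered 5109 for sham 1, 5126 for sham 2 and 3912 for 2VO 1, or 14147 of 17931 barcodes. The libraries differed in depth, with 64667950, 39017426 and 17681002 unique molecular identifiers (UMIs) and medians of 8191, 5249 and 2311 UMIs per cell. The 13 mitochondrial mRNAs took 3.38%, 4.09% and 5.89% of the UMIs, and 161, 293 and 407 cells were over 10% mitochondrial. Between 7 and 10 of the kept barcodes were shared by any pair of libraries. Cells were clustered into 30 clusters without the mitochondrial genes, and 29 clusters were named from marker genes as astrocyte-like (AST), oligodendrocyte precursor-like (OPC), oligodendrocyte-like (OLG), neural progenitor-like (NPC), glutamatergic neuron-like (GLUTN), Cajal-Retzius-like (CR), endothelial-like (EC), pericyte-like (PER), smooth muscle-like (VSMC), vascular leptomeningeal-like (VLMC), microglia-like (MG), macrophage-like (MAC), choroid plexus epithelial-like (CPEC) and ependymal-like (EPN). Ependymal-like cells were not tested, since 2VO 1 held 9 of them. Hippocampal markers were detected in each library, with Prox1 at 0.727, 0.560 and 0.483 and Neurod6 at 0.0305, 0.228 and 0.0204 UMIs per 10000 in sham 1, sham 2 and 2VO 1. Neurod6 marks pyramidal cells and was low in each library. Prox1, listed as a granule cell marker, had a UMI in 32.8%, 18.5% and 14.3% of all kept cells, whereas GLUTN held 48, 108 and 15 cells. It was thus not particular to granule cells here.

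Levels in whole libraries are given first, as UMIs per 10000 in the order sham 1, sham 2 and 2VO 1. mt-Nd4, a proton-pumping subunit of the membrane arm, had the highest level of the 7, at 30.1, 35.8 and 51.8. The related pumping subunits mt-Nd2 and mt-Nd5 were at 17.2, 21.6 and 33.2, and at 10.6, 13.9 and 16.1. mt-Nd1, which borders the ubiquinone site, was at 17.3, 19.8 and 28.1. The small subunits mt-Nd3 and mt-Nd4l were at 6.73, 6.73 and 11.5, and at 15.1, 15.7 and 26.9. mt-Nd6, a membrane-arm subunit, was the lowest, at 0.303, 0.369 and 1.75. All 7 were higher in 2VO 1 than in either sham library, and the sham libraries differed far less from each other than from 2VO 1 for mt-Nd6. Whole-library levels mix cell classes in unequal shares (CPEC, for example, gave 590, 315 and 448 of the cells). The 6 heavy-strand ND genes summed to 96.9, 113.6 and 167.5, and the 6 other mitochondrial mRNAs to 240.4, 294.9 and 420.1. 

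Per kb of gene model the order of the genes changed. mt-Nd4l was then the highest, at 50.8, 53.0 and 90.4 UMIs per 10000 per kb, and mt-Nd5 was the lowest heavy-strand gene, at 5.79, 7.64 and 8.84. mt-Nd6 stood at 0.584, 0.712 and 3.37. Since the kit reads transcript ends, per-kb values compare genes less directly than for full-length libraries. As a share of the UMIs of the 7 genes, mt-Nd4 took 30.9%, 31.4% and 30.6%, and mt-Nd1 took 17.8%, 17.4% and 16.6%. mt-Nd2 took 17.7%, 19.0% and 19.6%, and mt-Nd5 took 10.9%, 12.2% and 9.53%, lowest in 2VO 1. mt-Nd6 took 0.312%, 0.324% and 1.03%. Over the 13 tested classes, mt-Nd4 ranged between 29.0% and 37.1% of the 7, whereas mt-Nd5 varied more, between 4.28% and 16.2%.

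The heavy-strand ND level is ranked here over the 13 tested classes. CPEC was first in each library, at 167.9, 240.4 and 230.1 UMIs per 10000. VLMC (116.0 and 134.4), AST (103.2 and 110.9) and VSMC (76.7 and 97.0) followed in the sham libraries, and the sham values of these 4 classes did not overlap. The other 9 classes lay between 34.4 and 76.4 in sham, and each overlapped its neighbours in the order MAC, EC, OLG, PER, MG, GLUTN, OPC, NPC and CR. In 2VO 1 the order of the tested classes was different. After CPEC came VSMC at 177.1, VLMC at 161.9, OLG at 156.0, MG at 136.3 and then AST at 130.0. GLUTN was last at 53.1. The heavy-strand sum was above both sham values in 12 of 13 classes, and in CPEC it lay between them. EPN, which was not tested and is not ranked, was at 106.2, 123.1 and 208.8, the last on 9 cells.

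**Figure D1:**
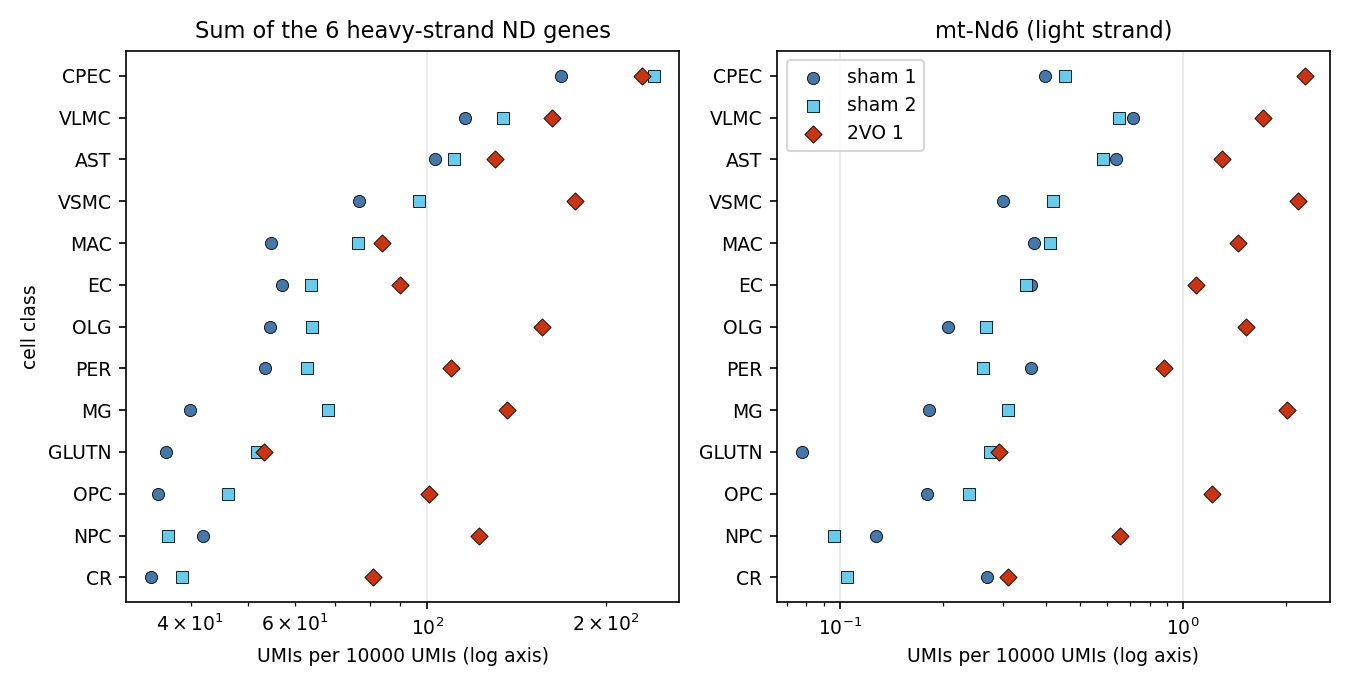
Level of the 6 heavy-strand ND genes together and of mt-Nd6 (UMIs per 10000 UMIs, log axis) in each cell class, with 1 point per library. The 2VO point lies above both sham points in 12 of 13 classes for the heavy-strand sum and in 13 of 13 for mt-Nd6; of the 13 classes plotted, CPEC is highest for the heavy-strand sum in every library.

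mt-Nd6 followed another order over the same 13 classes. In the sham libraries VLMC was highest (0.714 and 0.651 UMIs per 10000), followed by AST (0.636 and 0.583) and CPEC (0.396 and 0.454). In 2VO 1 CPEC was highest at 2.26, followed by VSMC at 2.17, MG at 2.01 and VLMC at 1.71. EPN, left out of this order, was at 0.674, 0.620 and 4.04, the last on 11 UMIs of 9 cells. Raw mt-Nd6 was above both sham values in 13 of 13 classes. With 3 libraries these orders carry no test, and classes with few cells rest on few UMIs: GLUTN held 3, 33 and 3 mt-Nd6 UMIs and CR 8, 2 and 2.

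The question of the design was what changed in each cell type after 2VO. Counts were summed per library and class, scaled by TMM and compared with edgeR's quasi-likelihood test, and a gene was called where its Benjamini-Hochberg adjusted p over all genes of the class was below 0.05 and its fold exceeded 1.5. Over the 13 classes, 90 pairs of member and class could be tested (mt-Nd6 in CR was below the filter on low counts). The members rose in 22 pairs and fell in 0. In 83 pairs the log2 fold change was above 0, and in 75 the normalised level in 2VO 1 was above both sham libraries. DESeq2 called 14 of the pairs higher and 0 lower. At an unadjusted p under 0.05, edgeR gave 1 lower pair, mt-Nd5 in CPEC. The calls fell in 8 classes, with 7 of 7 members in OPC, 5 of 7 in OLG, 5 of 7 in NPC, mt-Nd2 alone in CR and mt-Nd6 alone in CPEC, EC, MG and VSMC. Each class left 1 residual degree of freedom, because the spread of the only 2VO library had to be taken from the sham pair. Of all genes tested, 12.4% were called higher in OPC, 2.99% in OLG, 2.49% in NPC, 0.585% in CR, 2.94% in CPEC, 2.27% in EC, 1.51% in MG and 0.241% in VSMC. In the whole libraries without classes, 0 of 17147 genes were called by edgeR (10.6% had an unadjusted p under 0.05). mt-Nd6 was there at a log2 fold change of 2.25 with an adjusted p of 0.470, while DESeq2 called mt-Nd6 as the 1 member.

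**Figure D2:**
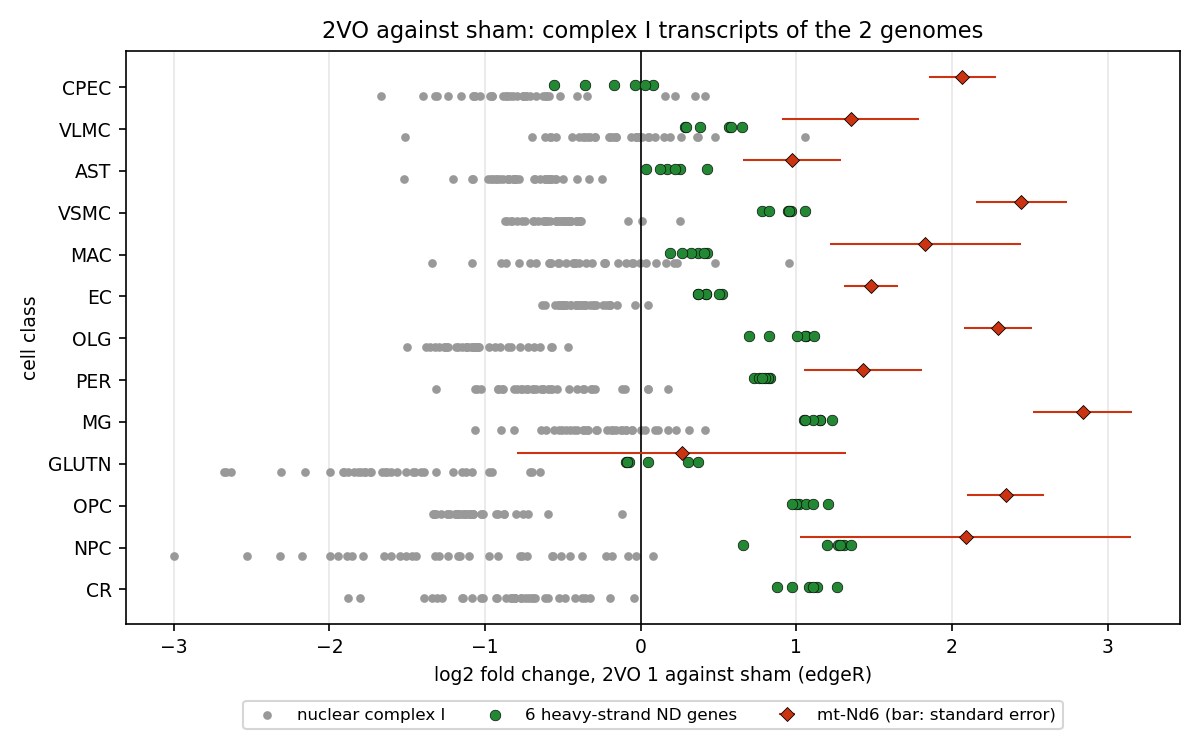
Log2 fold change (2VO 1 against sham, edgeR, TMM) of complex I transcripts in each class: mt-Nd6 as red diamonds with bars of 1 standard error, the 6 heavy-strand ND genes as green points and the nuclear complex I genes as grey points. mt-Nd6 lies to the right of all 6 heavy-strand genes in 11 of the 12 classes in which it was tested, and in CPEC, OLG, OPC and NPC, where the nuclear medians are −0.81, −1.07, −1.11 and −1.21, most grey points lie left of 0.

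OPC, the dividing glia that give rise to oligodendrocytes, was the class in which each of the 7 genes was called. mt-Nd6 was at 19.3 and 24.6 normalised CPM (counts scaled to a common library size) in sham and at 109.6 in 2VO 1, a log2 fold change of 2.35 (SE 0.25, adjusted p = 0.000402). mt-Nd4 was at 1272 and 1608 CPM in sham and 3101 in 2VO 1, a log2 fold change of 1.11 (SE 0.39, adjusted p = 0.0488). mt-Nd4l was at 650.5, 732.4 and 1592 CPM (log2 1.20, SE 0.32, adjusted p = 0.0188). In each of the 3 genes the 2VO value was above both sham values, which lay nearer to each other than to it. The other members rose by 0.97 to 1.06 on the log2 scale, with adjusted p between 0.0187 and 0.0447. OPC is also the class with the largest background, so a heavy-strand call there is 1 among 12.4% of genes. The cells compared were not alike in depth, with medians of 7642, 7069 and 2592 UMIs. Most marker lists of other cells rose as well. For example, the 6 CPEC markers summed to 11.0 and 13.6 UMIs per 10000 in sham and 33.3 in 2VO 1. The 6 EC markers summed to 0.963, 3.22 and 11.0, and the 5 red cell markers to 0.0143, 0.237 and 7.32, with all of these markers detected in 2VO 1. Of the lists of other cells, only OLG, NPC and VLMC were not above both sham libraries in 2VO 1. The OLG markers summed to 114.4, 44.9 and 50.9 and the NPC markers to 6.78, 6.44 and 5.16. The VLMC markers summed to 0.309, 0.455 and 0.369. Their part in the result was not tested. The choroid plexus gene Ttr in OPC was 0.526%, 0.676% and 1.61% of its CPEC level in sham 1, sham 2 and 2VO 1. mt-Nd6 in OPC was 45.3%, 52.3% and 53.6% of its CPEC level. This percent was above both sham values also in OLG, MG and VSMC, and between them in NPC. It was below both in AST, CR, EC, GLUTN, MAC, PER and VLMC, for example 91.2%, 76.9% and 48.1% in EC. What these values mean for the source of the mt-Nd6 UMIs was not tested. The 7 calls were lost when the genes needed per barcode were lowered to 200 (mt-Nd6 adjusted p = 0.0903) or when the top 5% of doublet scores were removed (0.0582), and only mt-Nd6 remained called between 1500 and 5000 UMIs.

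OLG, the myelin-forming cells, had 5 calls. mt-Nd6 was at 23.0 and 28.9 CPM in sham and 127.3 in 2VO 1 (log2 2.30, SE 0.22, adjusted p = 0.0409). mt-Nd4l was at 1054, 1128 and 2364 CPM (log2 1.12, SE 0.20, adjusted p = 0.0409) and mt-Nd1 at 992.3, 1110 and 2198 CPM (log2 1.06, SE 0.20, adjusted p = 0.0415). In each of these genes the 2VO value stood clear of both sham values. mt-Nd2 and mt-Nd4 were also called, at log2 1.05 and 1.01. mt-Nd3 and mt-Nd5 missed the threshold, at log2 0.70 and 0.82 with adjusted p of 0.0695 and 0.0673. Median depth was 11480, 7978 and 2278 UMIs, and the CPEC marker sum moved from 9.12 and 7.99 to 28.7 and the red cell sum from 0.00990 and 0.199 to 5.02. Ttr in OLG was 0.436%, 0.397% and 1.39% of its CPEC level in sham 1, sham 2 and 2VO 1, and mt-Nd6 52.2%, 59.0% and 67.3%. The source of these UMIs was not tested. All 5 calls were lost between 1500 and 5000 UMIs and when cells over 10% mitochondrial were left out (mt-Nd6 adjusted p = 0.142 and 0.0580).

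NPC, the progenitors and young neurons, had 5 calls on 171, 73 and 30 cells, with medians of 5838, 5269 and 1630 UMIs. mt-Nd4 was at 1621 and 1363 CPM in sham and 3623 in 2VO 1 (log2 1.28, SE 0.17, adjusted p = 1.69e-05). mt-Nd4l was at 864.6, 682.8 and 1976 CPM (log2 1.35, SE 0.20, adjusted p = 0.000102). mt-Nd1, mt-Nd2 and mt-Nd3 were called at log2 1.20, 1.27 and 1.31. mt-Nd5 was at log2 0.66 (adjusted p = 0.173), and mt-Nd6 rested on 14, 4 and 4 UMIs (log2 2.09, SE 1.06, adjusted p = 0.237). The 5 calls were lost with DESeq2, where their adjusted p lay between 0.114 and 0.196. The CPEC marker sum in these cells was 10.9, 6.77 and 57.7 UMIs per 10000, of which Ttr was 10.8, 6.75 and 56.8, with 3 of the 6 CPEC markers detected in 2VO 1. The red cell sum was 0.0091, 0.434 and 8.05 and the NPC marker sum 73.1, 69.3 and 52.2. The OLG marker sum was 64.4, 1.11 and 80.5, so in 2VO 1 it exceeded the NPC sum. Their part was not tested. In CR, the early-born marginal zone neurons, mt-Nd2 was at 759.1 and 774.7 CPM in sham and 1842 in 2VO 1 (log2 1.26, SE 0.24, adjusted p = 0.0292) on 51, 30 and 28 cells, and this call too was lost with DESeq2. The CPEC marker sum in CR was 11.9, 10.3 and 39.9. The 5 other heavy-strand genes in CR were at log2 0.88 to 1.13 with adjusted p between 0.0525 and 0.0990.

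In 4 classes mt-Nd6 was the only member called. In EC, the lining of blood vessels, mt-Nd6 was at 36.6 and 36.8 CPM in sham and 102.5 in 2VO 1 (log2 1.48, SE 0.17, adjusted p = 0.00569), from 147, 213 and 355 UMIs. This was the only call of the 22 that was kept under each of the 10 alternatives that tested it, with adjusted p of at most 0.0314. The heavy-strand genes in EC were at log2 0.37 to 0.52 with adjusted p of 0.171 or more. In EC the 3 libraries were closer in depth than in the glia, with medians of 3011, 2634 and 1982 UMIs. The 6 CPEC markers summed to 16.9, 13.9 and 29.7 UMIs per 10000 in EC and the 6 OLG markers to 10.8, 2.07 and 25.9. Most lists of other cells were likewise above both sham values, such as OPC at 0.272, 0.139 and 1.65 and MG at 0.368, 0.311 and 1.21. Only the red cell markers (10.3, 58.8 and 7.88), the PER markers (1.84, 5.78 and 1.07) and the CR markers (3.27, 2.73 and 2.21) were below both. The GLUTN and NPC lists lay between. The part of these markers was not tested. In VSMC, the contractile cells of arteries, mt-Nd6 was at 30.6, 44.3 and 210.8 CPM (log2 2.45, SE 0.29, adjusted p = 0.00380), the second smallest p of its class. DESeq2 did not call it (adjusted p = 0.469). VSMC had medians of 7471, 6614 and 3481 UMIs, and their own markers summed to 541.8, 551.0 and 382.6 UMIs per 10000. The OPC markers summed to 5.15, 4.23 and 7.76, the OLG markers to 38.3, 18.1 and 39.5 and the PER markers to 23.2, 16.0 and 25.6, all above both sham libraries in 2VO 1, whereas the CPEC markers were highest in a sham library, at 11.0, 79.1 and 24.7. Their part was not tested.

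In MG, the resident immune cells of the brain, mt-Nd6 was at 19.3 and 33.1 CPM in sham and 184.5 in 2VO 1 (log2 2.84, SE 0.32, adjusted p = 0.0262). This was the largest log2 fold change among the 90 pairs. The heavy-strand genes were at log2 1.05 to 1.23 with adjusted p between 0.0976 and 0.155, and sham 1 and sham 2 lay apart, for example at 1396 and 2369 CPM for mt-Nd4 against 3897 in 2VO 1. MG of 2VO 1 had a median of 1842 UMIs against 4947 and 4512. The MG marker sum was 125.3, 139.6 and 72.8 UMIs per 10000, and the CPEC sum 22.8, 9.55 and 56.3. Ttr in MG was 1.1%, 0.473% and 2.71% of its CPEC level in sham 1, sham 2 and 2VO 1, and mt-Nd6 45.9%, 68.1% and 88.8%. The source of these UMIs was not tested. The mt-Nd6 call was lost with at least 200 genes per barcode and without cells over 10% mitochondrial (adjusted p = 0.709 and 0.0815). The first of these compares another set of cells: with 200 genes, MG held 17 cells of 2VO 1 in place of 341, and a cluster with 530 cells of 2VO 1, in which 6 of 6 MG markers were detected, stayed unnamed. Between 1500 and 5000 UMIs all 7 members were called in MG, where 11.5% of all genes were.

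CPEC, which secrete cerebrospinal fluid, showed mt-Nd6 apart from the other 6. mt-Nd6 was at 41.3 and 51.1 CPM in sham and 192.9 in 2VO 1 (log2 2.07, SE 0.21, adjusted p = 6.09e-08), on 970, 435 and 1753 UMIs. It had the sixth smallest p among 12805 genes. The heavy-strand genes did not move with it. mt-Nd4 was at 5170, 7920 and 5812 CPM, and mt-Nd1 at 3280, 5159 and 3292 CPM, so that 2VO 1 lay between the sham libraries for both. mt-Nd5 was at 2302, 4403 and 2281 CPM (log2 −0.56, SE 0.26, adjusted p = 0.207), the only pair of the 90 in which 2VO 1 was below both sham libraries. The CPEC marker sum was level at 2093, 2014 and 2078 UMIs per 10000, whereas median depth was 39231, 28699 and 7502 UMIs. Between 1500 and 5000 UMIs the mt-Nd6 call was lost (log2 0.49, adjusted p = 0.615) and 5 heavy-strand genes were called lower (log2 −0.96 to −1.62, mt-Nd3 not called at −0.34), where 0.75% of all genes were. This range held 56 of 590, 52 of 315 and 147 of 448 CPEC cells. The mitochondrial mRNAs took 15.6%, 14.3% and 7.99% of their UMIs, against 5.41%, 7.38% and 7.54% over the class. The sham cells of this range were thus not typical of CPEC. In the cells of 10000 UMIs or more, the bulk of the class in sham, mt-Nd6 was at 0.355 and 0.369 UMIs per 10000 in sham and 2.12 in 2VO 1, and the heavy-strand sum at 161.1, 222.5 and 224.1.

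In the other 5 classes no member was called. In AST mt-Nd6 was at 64.0, 62.7 and 124.5 CPM (log2 0.97, SE 0.32, adjusted p = 0.276), and the heavy-strand genes at log2 0.03 to 0.42. In PER mt-Nd6 was at log2 1.43 (adjusted p = 0.323) and the heavy-strand genes at 0.73 to 0.83. In MAC mt-Nd6 was at 41.3, 48.8 and 164.1 CPM (log2 1.83, adjusted p = 0.0872), and in VLMC at 73.8, 79.8 and 198.2 CPM (log2 1.35, adjusted p = 0.204). In these 4 classes the 2VO value of mt-Nd6 was above both sham values without passing the test. Of the 12 classes tested, GLUTN was the only one in which mt-Nd6 did not exceed each heavy-strand gene, at log2 0.26 on 3 UMIs of 2VO 1. Only 15 GLUTN cells came from 2VO 1. Among all genes tested in these classes, 0.0189% were called higher in AST, 2.19% in MAC, 1.2% in VLMC, 1.14% in GLUTN and 0 in PER.

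The light-strand gene was then compared with the heavy-strand genes within each library, as the mt-Nd6 share of the UMIs of the 7 genes with 95% intervals by the Clopper-Pearson method, for counting error alone. In whole libraries the share was 0.312% (0.298% to 0.326%), 0.324% (0.308% to 0.341%) and 1.03% (0.997% to 1.07%). The sham libraries differed by 1.04-fold, and 2VO 1 stood at 3.27 times their mean. The 2VO share was above both sham shares in 12 of 13 classes, and in 6 of them (CPEC, EC, MG, OLG, OPC and VSMC) its interval lay wholly above both sham intervals. CPEC had the widest gap, at 0.235%, 0.188% and 0.974%, or 4.64 times the sham mean. MG went from 0.453% and 0.452% to 1.45%, and VSMC from 0.387% and 0.429% to 1.21%. OLG went from 0.378% and 0.416% to 0.967% and OPC from 0.506% and 0.511% to 1.19%. EC had the smallest gap of the 6, at 0.630%, 0.544% and 1.20%, or 2.05 times the sham mean. In the classes with few UMIs the intervals overlapped, for example 0.381% (0.0462% to 1.37%) in CR of 2VO 1.

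**Figure D3:**
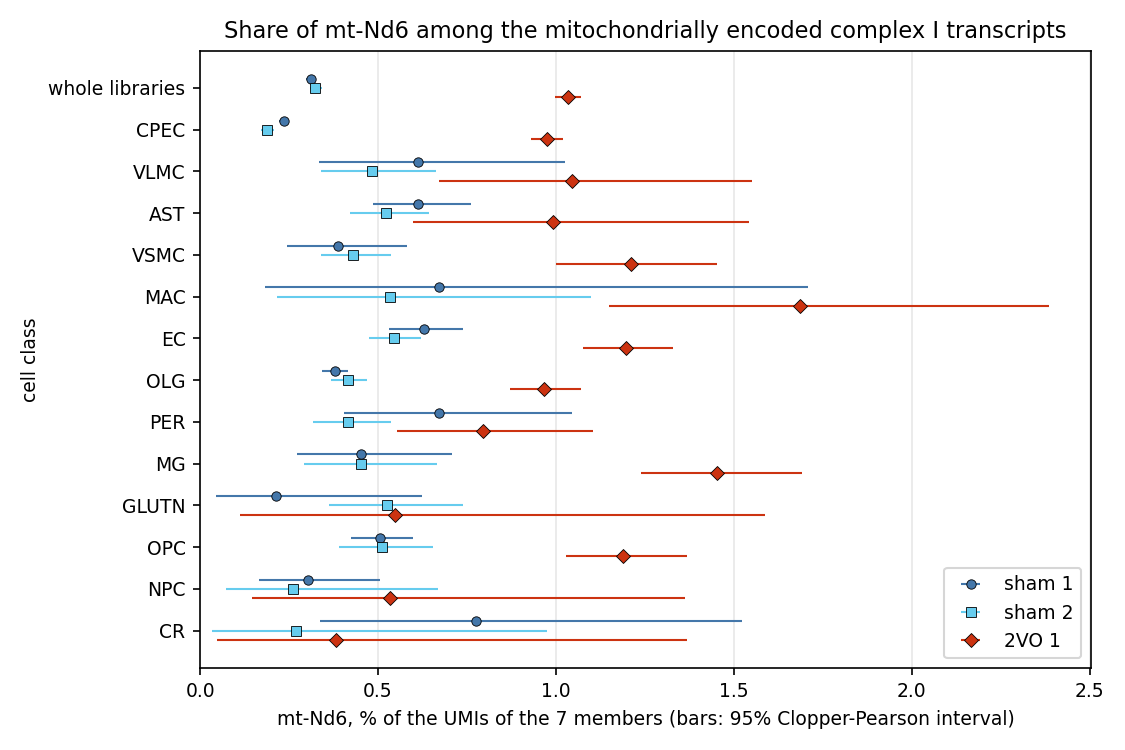
mt-Nd6 as a percent of the UMIs of the 7 ND genes in whole libraries and in each class, with 1 point per library and exact 95% intervals for counting error. In CPEC, EC, MG, OLG, OPC and VSMC the 2VO interval lies above both sham intervals, and in CR and GLUTN the intervals are wide and overlap.

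When the library sizes of the test were replaced by the sum of the 6 heavy-strand ND genes, mt-Nd6 was called in OLG (log2 1.29, SE 0.36, adjusted p = 0.00212) and in OPC (log2 1.24, SE 0.45, adjusted p = 0.0195). On this scale 2.48% of all genes were called higher in OLG and 1.44% in OPC, while 47.5% and 42.9% were called lower. In EC the value was log2 1.04 (SE 0.35, adjusted p = 0.0502) and in VSMC 1.57 (SE 0.55, adjusted p = 0.0889). There 3.19% and 0.654% of all genes were called lower. Before adjustment the edgeR p was 0.00057 in OLG, 0.0062 in OPC, 0.0031 in EC and 0.0047 in VSMC. The adjusted p moves with how many genes of a class change on this scale. The call in OPC thus does not set it above EC or VSMC. In CPEC it was the largest at 2.21, but with an SE of 0.95 and an adjusted p of 1.000, and in MG it was 1.69 (SE 1.06, adjusted p = 0.515). All 12 tested classes were above 0, at log2 0.43 to 2.21. In whole libraries mt-Nd6 was called relative to the heavy-strand genes (log2 1.71, SE 0.37, adjusted p = 0.0376), where 0.187% of all genes were called higher.

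The classes are made of several clusters that took unequal numbers of cells from the 3 libraries, so the same levels were read within clusters. Of the 27 clusters with at least 10 cells in each library, the raw mt-Nd6 level was highest in 2VO 1 in 27, the heavy-strand sum in 24 and the mt-Nd6 share in 25. None was lowest in 2VO 1. Most sham OPC were in cluster 4 (551, 258 and 62 cells), where the heavy-strand sum was 35.2, 46.3 and 60.6 and mt-Nd6 0.162, 0.209 and 0.848 UMIs per 10000. Most OPC of 2VO 1 were in cluster 13 (48, 38 and 385 cells), where the values were 53.3, 67.6 and 114.8 and 0.193, 0.340 and 1.33. So the heavy-strand level was higher in cluster 13 than in cluster 4 within each library as well. Of the OLG clusters, cluster 1 (713, 565 and 53 cells) had mt-Nd6 at 0.206, 0.253 and 0.912, and cluster 2 (100, 251 and 675 cells) at 0.182, 0.348 and 1.57. Both CPEC clusters had the 2VO heavy-strand sum between the sham values and mt-Nd6 above them, at 0.377, 0.378 and 2.16 in cluster 3 and 0.783, 1.14 and 3.84 in cluster 15. The clusters were defined on all libraries together, so their membership is not independent of the condition.

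Cells of 2VO 1 were shallower, so levels were also read within bins of UMIs per cell, which narrow the difference in depth but do not remove it, and whose lowest and highest bins are open. Over all kept cells the raw heavy-strand sum and mt-Nd6 of 2VO 1 were above both sham libraries in 6 of 6 bins of UMIs per cell. Under 1500 UMIs the heavy-strand sum was 124.4, 111.1 and 153.9 UMIs per 10000 and mt-Nd6 0.996, 0.661 and 1.586. At 10000 UMIs or more they were 106.3, 137.9 and 211.1, and 0.287, 0.322 and 2.02. CPEC gave 486 of 1950, 233 of 890 and 203 of 254 cells of this bin, so its levels also move with cell mix. Within CPEC of that depth the heavy-strand sum was 161.1, 222.5 and 224.1. In both sham libraries mt-Nd6 was thus higher in the shallowest bin than in the deepest, whereas in 2VO 1 it lay between 1.45 and 2.02 in each bin. Within EC both quantities were above sham in 6 of 6 bins, and within OLG the heavy-strand sum in 5 of 5 and mt-Nd6 in 4 of 5. Within OPC these counts were 4 of 4 and 3 of 4. In OPC of 1500 to 2500 UMIs the heavy-strand sum was 84.5, 102.2 and 129.9, and in OPC of 6000 to 10000 UMIs 35.0, 42.1 and 74.7. mt-Nd6 in OPC of 1500 to 2500 UMIs was 0.214, 1.72 and 1.71, so that 2VO 1 did not exceed sham 2, on 1, 8 and 56 UMIs. CPEC differed: its heavy-strand sum in 2VO 1 was above both sham libraries in 2 of 5 bins and below both in 3, for example 965.9, 977.5 and 355.5 at 4000 to 6000 UMIs on 18, 16 and 33 cells.

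**Figure D4:**
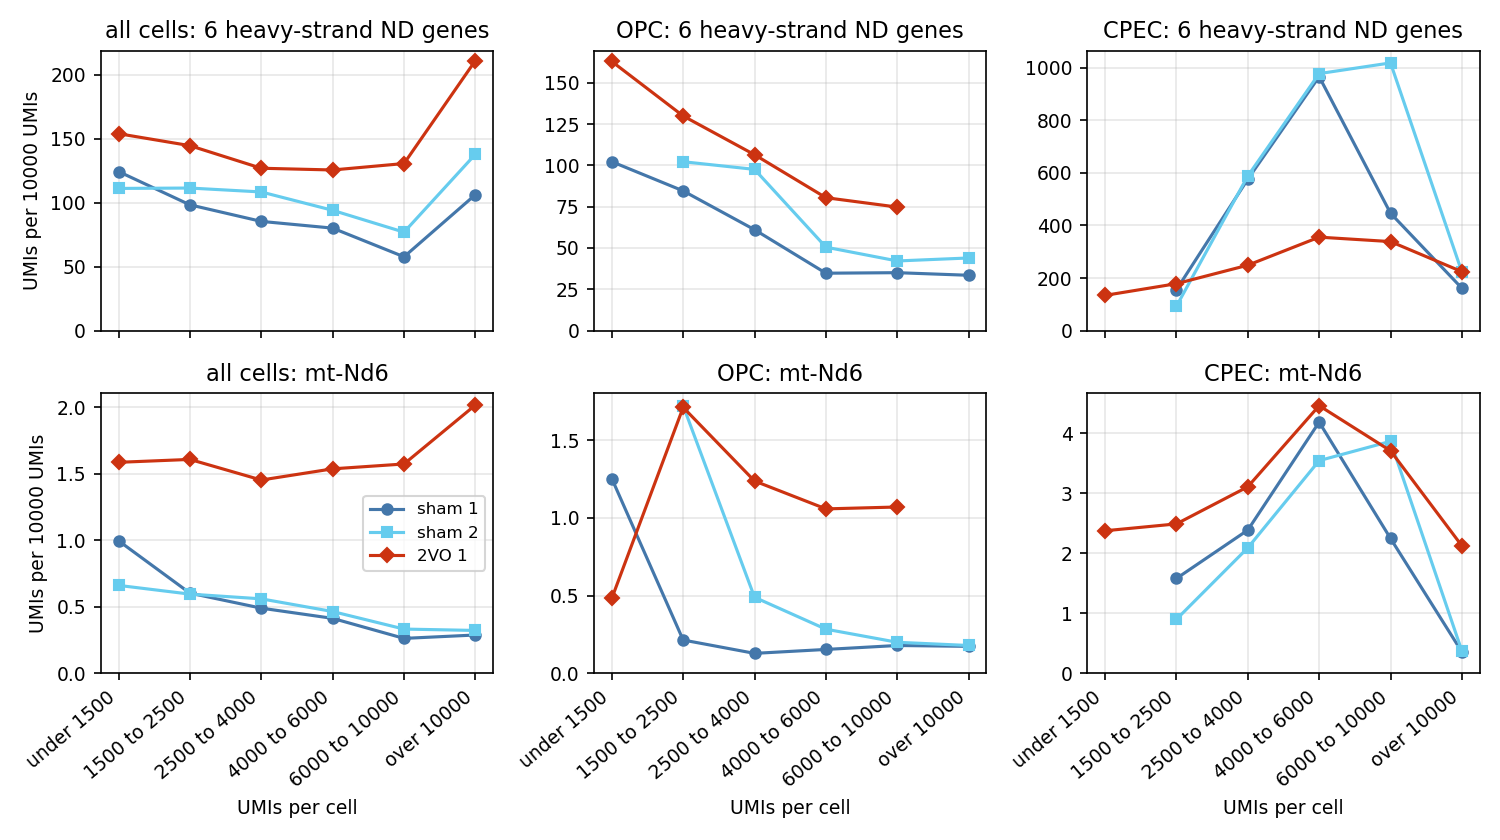
Heavy-strand ND sum (upper panels) and mt-Nd6 (lower panels), in UMIs per 10000 on linear axes from 0, by bin of UMIs per cell for all kept cells, OPC and CPEC, with 1 line per library and points only where that library had at least 10 cells. For all cells the 2VO line is above both sham lines in 6 of 6 bins, and in CPEC the heavy-strand line of 2VO 1 lies below both sham lines in 3 of 5 bins. The bins of all cells mix cell classes in unequal shares between libraries.

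The edgeR test was repeated on cells of 1500 to 5000 UMIs, a range in which 2VO 1 was still shallower, with medians of 3915, 3465 and 2272 UMIs in MG and 3719, 3454 and 2569 in OPC. There, 74 pairs could be tested in 11 classes, of which 16 were called higher and 5 lower, the 5 lower ones all in CPEC. The higher calls were 7 in MG, 5 of 6 in NPC, 2 in CR and mt-Nd6 alone in EC and OPC, where 11.5%, 8.64%, 9.92%, 2.6% and 2.51% of all genes were called higher, and none fell in OLG (0.998% of all genes). Of the 22 calls above, 21 were tested again, 21 remained above 0 and 9 remained called. In OPC the heavy-strand genes were at log2 0.56 to 0.83 and mt-Nd6 at 1.78. In OLG they were at 0.33 to 0.85 and mt-Nd6 at 1.31, and in AST at −0.67 to −0.28, the reverse of their sign over all cells, with mt-Nd6 at 0.18. mt-Nd6 was above 0 in 8 of 8 classes tested in this range. In whole libraries it was called there (log2 1.52, adjusted p = 0.0208, with 3.05% of all genes called higher), but not relative to the heavy-strand genes (log2 1.08, adjusted p = 0.569). Relative to them it was called in CPEC (log2 1.60, adjusted p = 0.000738). This call and the 5 lower ones in CPEC rest on 56 and 52 sham cells at 15.6% and 14.3% mitochondrial UMIs. The 147 cells of 2VO 1 were at 7.99%.

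Whether the 2VO difference of a member differed between classes was tested in a fit over all classes with 12 residual degrees of freedom, as the class's log2 difference minus the mean of the other classes. These degrees of freedom come from the classes of the 2 sham mice. Classes of 1 mouse are not independent mice, and 2VO was again a single mouse. None of the 91 pairs of member and class was called, with a smallest adjusted p of 0.229, and 16 pairs had an unadjusted p under 0.05. Over all genes 0.0417% of 172458 such tests were called. The smallest p was that of mt-Nd6 in MG, at a log2 difference of 1.29 (SE 0.36, adjusted p = 0.229, edgeR), followed by mt-Nd5 in CPEC at −1.06 (SE 0.33, adjusted p = 0.300). Classes with a call and classes without one were therefore not shown to differ for these genes over all cells. Between 1500 and 5000 UMIs, 3 of 77 pairs were called: mt-Nd5 in CPEC at −2.11 (adjusted p = 0.00425), mt-Nd6 in MG at 2.24 (0.0233) and mt-Nd4l in MG at 1.66 (0.0312). These 3 calls carry the same limit and were not replicated in a second 2VO mouse. That of mt-Nd5 in CPEC also rests on the few sham cells of this range, which had a high mitochondrial share.

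The nuclear genes of complex I were called in the other direction. Of 36 nuclear subunit genes, 33 were called lower in OPC, 27 in OLG, 24 in CPEC, 16 in NPC and 3 in GLUTN, and 0 were called higher in any class. Of all genes, 15.9% were called lower in OPC, 8.21% in OLG, 6.46% in CPEC, 7.25% in NPC and 0.487% in GLUTN. The median log2 fold change of the 36 genes was −1.11 in OPC, −1.07 in OLG, −1.21 in NPC and −0.81 in CPEC, where the median over all genes lay between −0.14 and 0.03. In OPC Ndufv2, a flavoprotein-arm subunit of the NADH-oxidising module, was at 312.1, 335.9 and 128.8 CPM (log2 −1.33, SE 0.28, adjusted p = 0.00804). In OLG Ndufs8, an iron-sulphur subunit on the path to ubiquinone, was at 205.7, 213.7 and 74.0 CPM (log2 −1.502, SE 0.19, adjusted p = 0.0409). In CPEC Ndufv3, an accessory subunit of the NADH module, was at 1591, 2156 and 589.7 CPM (log2 −1.67, SE 0.25, adjusted p = 4.07e-05). In NPC Ndufb11, an accessory subunit of the membrane arm, was at 463.0, 444.2 and 100.2 CPM, with 7 UMIs in 2VO 1 (log2 −2.18, SE 0.38, adjusted p = 0.000609). Of the 103 lower calls, 4 remained between 1500 and 5000 UMIs and 68 without cells over 10% mitochondrial.

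Of 15 assembly factors, which put complex I together and are not part of it, 6 were called lower in OPC, 3 in CPEC, 2 in OLG and 1 in NPC, where 15.9%, 6.46%, 8.21% and 7.25% of all genes were. The counts in OLG and NPC lie near that background. Ndufaf2 was at log2 −1.35 in OPC (SE 0.27, adjusted p = 0.00682) and at −1.30 in OLG (SE 0.21, adjusted p = 0.0409). Of 7 mitochondrial transcription and replication genes, Polg, the catalytic subunit of the mitochondrial DNA polymerase, was called higher in OPC (78.3, 88.7 and 180.1 CPM, log2 1.11, adjusted p = 0.00755) and in OLG (9.05, 10.2 and 24.9 CPM, log2 1.37, adjusted p = 0.0445). Tfam, which packages mitochondrial DNA and starts transcription, was called lower in OPC (52.1, 46.8 and 22.6 CPM, log2 −1.14, adjusted p = 0.0144), as was the transcription factor Tfb2m (log2 −1.13, adjusted p = 0.0283). Mterf1a was called lower in CPEC (log2 −0.86, adjusted p = 0.0415). So 1 of 7 was called higher in OPC and in OLG, where 12.4% and 2.99% of all genes were. Lower calls were 2 of 7 in OPC and 1 of 7 in CPEC, where 15.9% and 6.46% of all genes were. Counts this small are not read as a change of the list. Of 15 RNA processing and stability genes, 14 of them in the files, Slirp, which stabilises mitochondrial mRNAs, was called lower in CPEC, OLG and OPC (log2 −1.18, −0.95 and −1.12). Hsd17b10, a subunit of mitochondrial RNase P, was called lower in OLG and OPC (log2 −1.33 and −0.92), and its partner Trmt10c in OPC (log2 −1.04). Of the RNA processing genes tested, 1 of 14 was thus lower in CPEC, 2 of 14 in OLG and 3 of 13 in OPC. Among all genes 6.46%, 8.21% and 15.9% were, so these counts lie near that background. The 6 other mitochondrial mRNAs, all read from the same strand as the heavy-strand ND genes, had median log2 fold changes of 0.90 in OPC, 0.97 in OLG, 1.18 in NPC, 1.15 in MG and −0.01 in CPEC, close to those of the heavy-strand ND genes (1.04, 1.03, 1.27, 1.13 and −0.10). Of these 6, 6 were called higher in NPC (2.49% of all genes) and 1 each in CR (0.585%), OLG (2.99%) and OPC (12.4%), the last a count near its background.

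Across the 39 values of 13 classes in 3 libraries, each heavy-strand member followed the heavy-strand sum with a Spearman's rho of 0.94 to 0.99, and mt-Nd6 with a rho of 0.87. The points share libraries and depth, so these values carry no test. Among 2309 genes ranked by the same measure, the nuclear genes most like the heavy-strand sum were Neat1 (rho 0.71), Ttr (0.68), Cd63 (0.61), Enpp2 (0.61) and Mt1 (0.58). Those most like mt-Nd6 were Neat1 (0.84), a long noncoding RNA that stays in the nucleus, Ttr (0.70), Ctsd (0.62), Gga1 (0.61) and Gm26917 (0.59).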

How the data were processed

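Droplet 3′ RNA libraries of whole hippocampus were measured, 1 per mouse. The deposited values were UMI counts per gene and barcode, which the authors made with Cell Ranger on mm10 (submitters' processing notes, which also name Seurat 3.2.2). No normalization had been applied. Here barcodes with at least 650 genes were kept and genes in at least 20 cells were clustered with scanpy 1.11.5 (2000 variable genes without mitochondrial, ribosomal and haemoglobin genes, 30 principal components, 15 neighbours, Leiden resolution 1.0), and clusters were named from 3 or more fixed markers. The naming rule was completed after the clusters had been seen, so class borders are rebuilt and not those of the study. Scrublet marked 102, 132 and 1 cells as doublets, so it did not work in 2VO 1; doublets were kept and removed only as an alternative.

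Counts were summed per library and class (10 or more cells in each library), filtered with filterByExpr, scaled by TMM and tested with edgeR 4.0.16 (glmQLFit and glmQLFTest, two-sided, Benjamini-Hochberg over all genes of a class, called at 0.05 and a fold of 1.5). mt-Nd6 was tested again with the 6 heavy-strand ND genes as library size, and classes were compared in 1 fit with library and class terms. Named genes are the 7 members, in each list the called genes with the smallest p, and the 5 genes most alike by rank. The fits were tested on simulated data. DESeq2 1.42.0 was an alternative. Depth was 17681002 to 64667950 UMIs per library. The matrix of 2VO 2 (10421 barcodes listed) was not used here. Sequences were read from the GENCODE vM21 transcripts of GRCm38. The members, lists and tests were chosen with earlier results of these data known. The p-values rest on the spread between 2 sham mice. In the fit over all classes, the classes of these mice were treated as separate values although they are not independent.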

Additional observations from a re-analysis of the deposited data

Results flagged for a closer look

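Barcodes with fewer than 650 genes entered no comparison. Among them, 819 in sham 1, 1516 in sham 2 and 1449 in 2VO 1, the mt-Nd6 share of the UMIs of the 7 ND genes was 0.612% (exact 95% interval 0.499% to 0.742%), 0.470% (0.413% to 0.533%) and 1.06% (0.927% to 1.21%), from 102, 241 and 228 mt-Nd6 UMIs. The 2VO value, 1.06%, drew attention because it stood above both sham values in data outside the main measurement.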

How the results depend on the processing

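No paired analysis was possible because the sham and 2VO libraries with a matrix share only 1 replicate number. With 1 2VO library, no test remains when either sham library is left out, so those fits give values only: mt-Nd6 then ranged from 2.16 to 2.46 (log2) in OPC, 2.17 to 2.51 in OLG, 1.91 to 2.22 in CPEC, 2.50 to 3.25 in MG, 1.48 to 1.50 in EC and 2.26 to 2.81 in VSMC. The 22 higher calls became 14 with DESeq2 and 35 without a filter on low counts, and stayed between 16 and 30 otherwise. All of the 22 that were tested stayed above 0 in each of the 10 alternatives. Lower calls, 0 in the main test, were 1 without a filter (mt-Nd5 in CPEC) and 5 between 1500 and 5000 UMIs. The 6 classes with an mt-Nd6 call became 3 of 8 in that UMI range. The 2 classes with mt-Nd6 called relative to the heavy-strand genes became 1 in that range, and 4 each without cells over 10% mitochondrial, without Scrublet doublets and without the top 5% of doublet scores (the last chosen after seeing the data). In whole libraries the 0 members called became 1 with DESeq2, 1 without a filter and 1 in the UMI range, and the 0 class differences became 3 in that range. The 103 lower calls of nuclear complex I genes became 4 in the UMI range and 68 without cells over 10% mitochondrial. The cause of these changes was not tested.

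Uncalled values changed sign 30 times, and called values 0 times. Between 1500 and 5000 UMIs AST was at −0.36, −0.33, −0.28, −0.67, −0.30 and −0.37 for mt-Nd1, mt-Nd2, mt-Nd3, mt-Nd4, mt-Nd4l and mt-Nd5, CPEC at −0.34 (mt-Nd3) and −0.96 (mt-Nd4l), MAC at −0.042, −0.082, −0.28 and −0.19 (mt-Nd1, mt-Nd3, mt-Nd4l, mt-Nd5) and VLMC at −0.11 and −0.088 (mt-Nd2, mt-Nd4). DESeq2 gave −0.039 (AST mt-Nd4) and −0.068 (GLUTN mt-Nd3), and no filter −0.057 (AST mt-Nd4), −0.0081 (CPEC mt-Nd4l) and −0.094 (GLUTN mt-Nd3). At 200 genes CPEC mt-Nd4l was −0.032 and GLUTN mt-Nd1, mt-Nd2 and mt-Nd4 0.24, 0.27 and 0.19. Without cells over 10% mitochondrial CPEC mt-Nd2 was 0.060 and GLUTN mt-Nd1, mt-Nd2 and mt-Nd4 0.032, 0.053 and 0.031. At resolution 2.0 GLUTN mt-Nd3, mt-Nd4l and mt-Nd5 were −0.27, −0.079 and −0.074. Depth limits mt-Nd6 in CR, GLUTN and NPC, with 2, 3 and 4 UMIs in 2VO 1.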
